A study of Mus musculus with 2 samples.

Results

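The 4 genes described here are Id2 and Id3, which encode inhibitor of DNA binding (Id) proteins, and Tcf3 and Tcf12, which encode their E protein partners. They were taken as named genes, matched by a gene symbol that is unique there, out of 28009 genes listed in both count matrices. All 4 had unique molecular identifiers (UMIs, 1 per captured RNA molecule) in both libraries. The cells were IL-10-producing (eGFP+) CD4+ T cells, Foxp3+ cells included, from adult mice with an IL-10 eGFP and a Foxp3 mRFP reporter allele that had received anti-CD3, which stimulates the T cell receptor complex, in repeated injections. One group came from the spleen and the other from the small intestine (epithelium and lamina propria), with 1 10x library for each, and both carried the same alleles and treatment. The libraries held no untreated or eGFP-negative cells, and the sources used here do not give the number of mice behind each. Intestinal cells were released with EDTA and collagenase, which is not stated for the spleen, so tissue and cell isolation cannot be told apart.

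E proteins are helix-loop-helix transcription factors that bind E-box motifs (CANNTG) as dimers. Tcf3 encodes E2A, whose splice forms are E12 and E47, and Tcf12 encodes HEB. Id proteins have the helix-loop-helix but lack the DNA-binding region, so they pair with E proteins and hold them off DNA. In T cells Id2 is best known from effector cells and Id3 from naive, memory and follicular helper cells, and both are known to matter in regulatory T cells.

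On the GRCm38 mouse genome, Id2 (ENSMUSG00000020644) lies on chromosome 12 at 25093799 to 25097140 on the minus strand and Id3 (ENSMUSG00000007872) on chromosome 4 at 136143497 to 136145755 on the plus strand. Tcf3 (ENSMUSG00000020167) lies on chromosome 10 at 80409514 to 80433647 and Tcf12 (ENSMUSG00000032228) on chromosome 9 at 71842688 to 72111871, both on the minus strand. No annotated gene overlaps Id2, Id3 or Tcf3. The Tcf12 locus holds 7 annotated genes on its own strand and 4 on the other, none of which is listed in the matrices. The stretch upstream of Id2 is shown because Id2 is the gene that differed most, and an E-box is the motif that the partners of its protein bind. These are 89 bases of the RefSeq promoter entry (GRCm38.p6, chr12:25096254-25096342, minus strand), upstream of the RefSeq start and, in longer GENCODE transcripts of Id2, between exons, with the E-box in capitals.
Id2: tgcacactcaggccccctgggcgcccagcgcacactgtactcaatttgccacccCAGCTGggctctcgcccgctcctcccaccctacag
The motif CAGCTG starts 196 bases before the RefSeq start. CANNTG, which reads the same on both strands, was found in 33.0% of the stretches at the same distance among 32851 promoter entries, and in 66.2% of the whole 250 bases upstream. Within those 250 bases the letters CANNTG occurred once for Id2 and for Tcf3, in 2 of the 3 entries of Tcf12, and not for Id3.

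After the quality filter and the removal of G2/M cells, 1278 of 1474 intestinal barcodes (median depth 3696 UMIs) and 1469 of 1738 splenic barcodes (median depth 5408 UMIs) were kept. No barcode was shared between the libraries. At least 1 of the T cell genes Cd3e, Cd3g and Cd4 had a UMI in 1272 of the 1278 intestinal and 1463 of the 1469 splenic cells. Cd4 by itself had UMIs in 934 intestinal and 984 splenic cells. The 5 listed NK cell and ILC genes had 22 UMIs in 19 intestinal cells and 77 UMIs in 54 splenic cells, with Ncr1 at 0 UMIs in both. The CD8 genes Cd8a and Cd8b1 both had UMIs in 121 intestinal cells and in no splenic cell, and Id2 stood at 1725 CPM in these 121 and at 2199 CPM in the other intestinal cells. A level is the sum of a gene's UMIs in a group of cells, per 1000000 UMIs of all genes in that group (CPM), so that 3 UMIs equalled 0.596 CPM in intestinal and 0.327 CPM in splenic cells. Values in brackets give 95% intervals, which are exact Poisson for levels and exact binomial (Clopper-Pearson) for ratios and shares of cells. They cover counting error only, and with 1 library per tissue no comparison below has a test or a replicate check.

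Id2 was several-fold higher in the small intestine, Tcf12 was higher there by a smaller margin, and Tcf3 and Id3 differed little. Id2 stood at 2138 CPM (2098 to 2179, 10761 UMIs) in intestinal and at 452.6 CPM (439 to 467, 4147 UMIs) in splenic cells. This was a 4.72-fold difference (log2 2.24, 2.19 to 2.29), at the 98.4th percentile of the log2 differences of 9034 genes with at least 50 UMIs. Of these genes, 9.33% were at least 2-fold higher and 12.3% at least 2-fold lower in the small intestine. Id2 was thus past 2-fold, which the other 3 genes were not. Tcf12 was close to it, at 1.97-fold, and its log2 difference was 1.04 (0.81 to 1.27) without abundant genes in the total. Tcf12 stood at 64.37 CPM (57.5 to 71.8) in intestinal and at 32.64 CPM (29.0 to 36.6) in splenic cells. Its log2 difference was 0.98 (0.75 to 1.21), at the 90.1st percentile, and the intervals of the levels did not overlap. Tcf3 was slightly lower in the small intestine, at 34.57 CPM (29.6 to 40.1) against 44.20 CPM, with a log2 difference of −0.35 (−0.62 to −0.10). Id3 was rare in both tissues, with 22 UMIs (4.370 CPM, 2.74 to 6.62) in intestinal and 49 UMIs (5.348 CPM, 3.96 to 7.07) in splenic cells, and its log2 difference of −0.29 (−1.09 to 0.46) was within counting error.

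The tissues differ in how many cells are in a state with high Ccl5, the gene of the chemokine CCL5 that marks effector and cytotoxic T cells. Cells with at least 1 Ccl5 UMI per 1000 UMIs were called Ccl5-high, and these were 1178 of 1278 intestinal (92.18%) and 225 of 1469 splenic cells (15.32%). The cut is a range on 1 gene and not a cell type, and 125 intestinal and 80 splenic cells lay between 0.5 and 2 Ccl5 UMIs per 1000. Foxp3, the defining transcription factor of regulatory T cells, had a UMI in 28 intestinal and 280 splenic cells.

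In the spleen Id2 followed the Ccl5-high state and the E protein genes did not. Id2 stood at 1281 CPM (1219 to 1345) in the 225 Ccl5-high and at 322.5 CPM (310 to 335) in the 1244 Ccl5-low cells, a 3.97-fold difference (log2 1.99, 1.90 to 2.08). This was at the 99.6th percentile of 8119 genes, of which 2.04% were at least 2-fold higher and 2.87% at least 2-fold lower in Ccl5-high cells. Id3 went the other way, with 0 UMIs in Ccl5-high cells (an upper bound of 2.96 CPM) and all 49 in Ccl5-low cells (6.189 CPM, 4.58 to 8.18). With a floor of 3 UMIs in place of 0 over the Ccl5-high group, Id3 was 2.57-fold lower there. The interval of the difference allowed a gap as small as 2.01-fold. With the cut at 3 Ccl5 UMIs per 1000, the floor gave a log2 difference of −0.80, and the interval allowed one as small as −0.45. Tcf3 stood at 39.37 CPM (29.1 to 52.1) in Ccl5-high and 44.96 CPM (40.4 to 49.9) in Ccl5-low cells, and Tcf12 at 27.32 CPM (18.9 to 38.2) and 33.47 CPM (29.6 to 37.8). Neither E protein gene differed beyond counting error, with log2 differences of −0.19 (−0.65 to 0.24) and −0.29 (−0.85 to 0.23).

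Intestinal Id2 was high in either state. It stood at 2182 CPM (2140 to 2226) in the 1178 Ccl5-high and at 1676 CPM (1558 to 1801) in the 100 Ccl5-low cells, a log2 difference of 0.38 (0.27 to 0.49), where the median of all 6870 genes was −0.13. With the cut at 0.5 Ccl5 UMIs per 1000 that difference was 0.00 (−0.17 to 0.17), so it rests on where the cut lies. Id3 was lower in the Ccl5-high cells, at 3.486 CPM (1.99 to 5.66, 16 UMIs) against 13.52 CPM (4.96 to 29.4, 6 UMIs), and its log2 difference of −1.96 (−3.38 to −0.31) had the same sign as in the spleen. With the cut at 0.5 Ccl5 UMIs per 1000 it was −1.84 (−3.88 to 1.30), which is within counting error. In this comparison 5.40% of genes were at least 2-fold higher and 5.91% at least 2-fold lower. The intestinal Ccl5-low cells also differed in other ways, as 189 of the 243 UMIs of the Th17 cytokine gene Il17a were in them, and the part of this in the Id2 and Id3 levels was not tested. Tcf3 (log2 −0.34, −1.03 to 0.43) and Tcf12 (0.48, −0.16 to 1.19) again did not differ beyond counting error.

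The tissue difference in Id2 was present within each state. In Ccl5-low cells without a Foxp3 UMI, Id2 stood at 1706 CPM (1577 to 1844) in 88 intestinal and at 326.8 CPM (312 to 342) in 984 splenic cells, a log2 difference of 2.38 (2.25 to 2.51). In Ccl5-high cells without a Foxp3 UMI it stood at 2194 CPM (2151 to 2238) in 1162 intestinal and at 1354 CPM (1287 to 1424) in 205 splenic cells, a log2 difference of 0.70 (0.62 to 0.78). The difference was at the 98.9th percentile of genes among the Ccl5-low cells. Among the Ccl5-high cells it was under 2-fold and at the 84.7th percentile. Intestinal Ccl5-low cells thus had a higher Id2 level than splenic Ccl5-high cells. Among the Ccl5-low cells 10.1% of 7269 genes were at least 2-fold higher in the small intestine and 10.1% at least 2-fold lower, and among the Ccl5-high cells 8.38% and 7.07% of 7114. The split did not make the tissues alike in Ccl5, which stood at 603.5 against 88.64 CPM in the Ccl5-low and at 54109 against 22042 CPM in the Ccl5-high cells of the small intestine and the spleen, and the part of this in Id2 was not tested. Tcf12 had log2 differences of 0.70 (−0.02 to 1.36) in the Ccl5-low and 1.30 (0.76 to 1.90) in the Ccl5-high cells, so its difference was beyond counting error in the latter only, and whether the states differed in it was not tested. Tcf3 had −0.29 (−1.18 to 0.48) and −0.18 (−0.67 to 0.35).

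RNA from broken cells can add UMIs of an abundant gene to every droplet, and no cell type known to lack Id2 was in these libraries to measure it. The part of such RNA in the Id2 level of Ccl5-low cells was not tested.

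**Figure D1:**
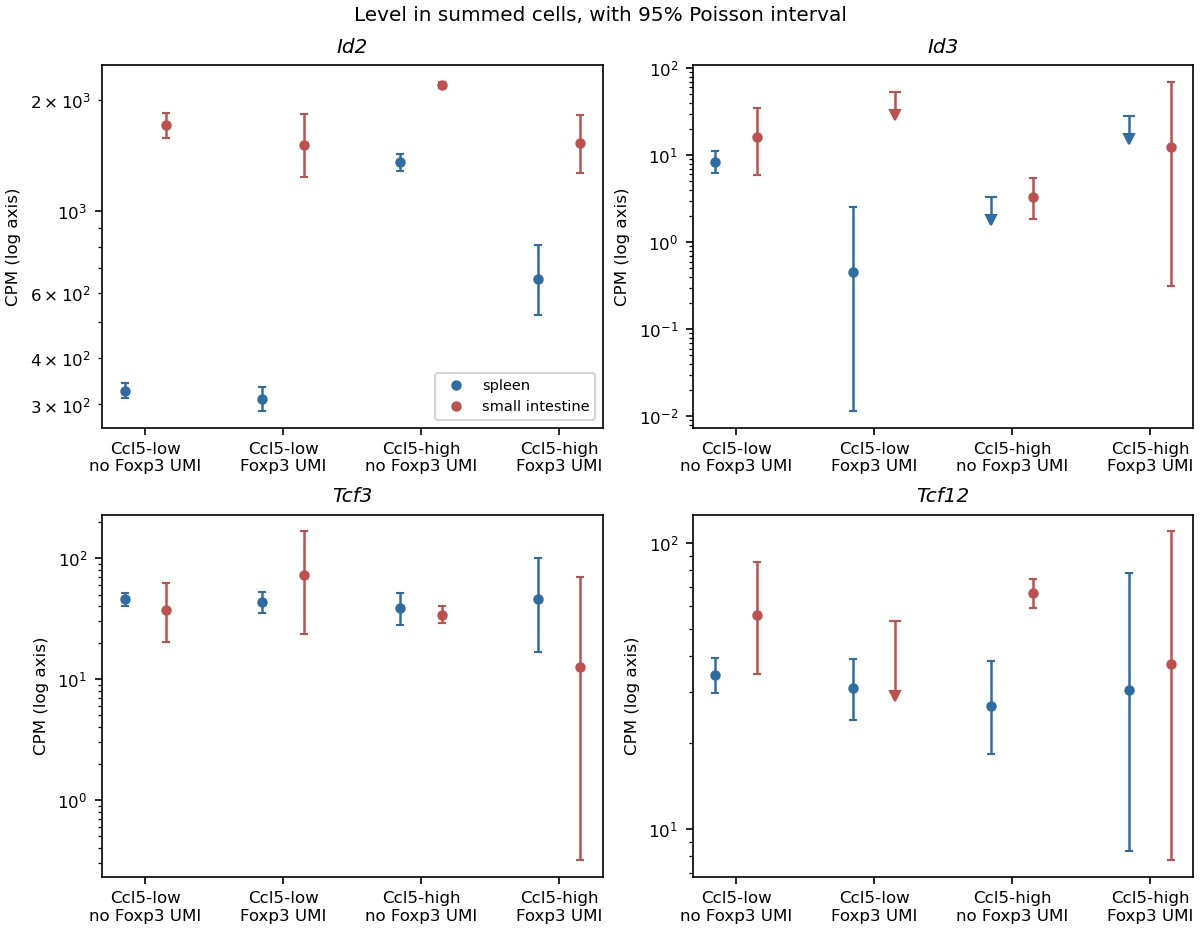
Levels of the 4 genes in CPM (log axis) in cells split by Ccl5 state and by a Foxp3 UMI, in spleen (blue) and small intestine (red). Points are summed cells, bars are exact Poisson 95% intervals and arrows mark groups with 0 UMIs at the upper bound. Splenic Id2 lies at 311.2 and 326.8 CPM in the Ccl5-low groups and at 1354 CPM in Ccl5-high cells without a Foxp3 UMI, and all 4 intestinal Id2 levels lie above the splenic ones, although the 2 with few cells overlap with the highest splenic level in their intervals.

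Cells with a Foxp3 UMI had a lower Id2 level in both tissues, and among splenic Ccl5-low cells the gap was within counting error. Splenic Id2 stood at 330.7 CPM (308 to 355) in the 280 cells with a Foxp3 UMI and at 494.2 CPM (478 to 511) in the 1189 without, a log2 difference of −0.58 (−0.69 to −0.47), where 1.15% of genes were at least 2-fold higher and 1.97% at least 2-fold lower. Among Ccl5-low cells the levels were 311.2 CPM (288 to 335) and 326.8 CPM (312 to 342), and the log2 difference was −0.07 (−0.20 to 0.06). The share of splenic cells with an Id2 UMI was not lower, since at 2000 UMIs per cell it was 40.1% (34.3 to 46.2) with and 39.4% (36.6 to 42.3) without a Foxp3 UMI, and among Ccl5-low cells 38.6% (32.6 to 44.8) and 31.5% (28.6 to 34.6). Among Ccl5-high cells the 20 with a Foxp3 UMI had 656.1 CPM (525 to 810) of Id2 and the 205 without had 1354 CPM, and the former also held less Ccl5, at 4951 CPM against 22042 CPM. Intestinal Id2 stood at 1520 CPM (1329 to 1731) in 28 cells with and at 2157 CPM (2116 to 2198) in 1250 cells without a Foxp3 UMI, a log2 difference of −0.50 (−0.70 to −0.31), where 7.25% of genes were at least 2-fold higher and 12.2% at least 2-fold lower. Without Ccl5-high cells it was −0.17 (−0.49 to 0.13), with at least 2 Foxp3 UMIs −1.44 (−2.00 to −0.93), and with Foxp3 read at 2000 UMIs per cell −0.13 (−0.51 to 0.23), so its size rests on how the cells are chosen. The value without Ccl5-high cells rests on 12 cells with a Foxp3 UMI, in which 1 cell held 50 of the 105 Id2 UMIs. Its interval does not include such spread between cells. Some Foxp3+ cells will have no Foxp3 UMI by chance, and the splenic cells with 1 were deeper, with a median of 7685.5 UMIs against 5051.

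Id3 was nearly missing from splenic cells with a Foxp3 UMI. They held 1 of the 49 Id3 UMIs (0.4294 CPM, 0.0109 to 2.39), against 7.025 CPM (5.18 to 9.31) in the others, a log2 difference of −4.03 (−9.37 to −1.48). It was −2.28 (−4.21 to −0.84) over all deposited barcodes and −2.29 (−4.22 to −0.85) with G2/M cells kept, so its size rests on a few UMIs. Within Ccl5-low cells, 1 of 260 with a Foxp3 UMI (0.385%, 0.00974 to 2.12) and 40 of 984 without (4.07%, 2.92 to 5.49) had an Id3 UMI, although the former were deeper. At 2000 UMIs per cell Id3 was found in 0 of 279 cells with a Foxp3 UMI, with an upper bound of 1.31%, and in 1.46% (0.851 to 2.32) of those without. Only 1 of the 28 intestinal cells with a Foxp3 UMI had Id3, and the interval of the difference spans both directions (log2 0.64, −4.73 to 3.28). Splenic Tcf3 stood at 43.37 CPM with and 44.49 CPM without a Foxp3 UMI (log2 −0.04, −0.38 to 0.29) and Tcf12 at 30.92 CPM and 33.22 CPM (−0.10, −0.51 to 0.28). With at least 2 Foxp3 UMIs the splenic Tcf12 difference was −0.62 (−1.27 to −0.02). Intestinal Tcf12 had 3 UMIs in the cells with a Foxp3 UMI (20.09 CPM, 4.14 to 58.7) against 65.72 CPM (58.7 to 73.3) in the others, a log2 difference of −1.71 (−4.00 to −0.15). With Foxp3 read at 2000 UMIs per cell it was −1.17 (−6.48 to 1.33), and the shares of cells with Tcf12 at equal depth were 11.1% (2.35 to 29.2) and 12.9% (11 to 14.9), so at equal depth it was within counting error. Without Ccl5-high cells there were 0 Tcf12 UMIs in the cells with a Foxp3 UMI, and the floor gave a bound of −0.38.

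The share of cells with a UMI was compared after each cell was thinned at random to 2000 UMIs, which left out 108 intestinal and 23 splenic cells below that depth. Id2 was found in 1087 of 1170 intestinal cells (92.9%, 91.3 to 94.3) and in 572 of 1446 splenic cells (39.6%, 37.0 to 42.1). Without thinning the shares were 95.4% and 57.7%, so the gap was narrower in the cells as deposited, which were deeper in the spleen. Within the spleen Id2 was found in 75.9% (69.7 to 81.4) of Ccl5-high and 33.0% (30.4 to 35.7) of Ccl5-low cells at equal depth, and within the small intestine in 94.0% (92.4 to 95.3) and 80.9% (71.4 to 88.2). Tcf12 was found in 12.8% (11 to 14.9) of intestinal and 6.43% (5.22 to 7.82) of splenic cells, while the unthinned shares were 21.7% and 18.2%. Tcf3 was found in 6.41% (5.08 to 7.97) and 7.75% (6.42 to 9.25), with 12.3% and 23.2% before thinning. Id3 was found in 14 of 1170 intestinal (1.2%, 0.656 to 2.0) and 17 of 1446 splenic cells (1.18%, 0.686 to 1.88), with 1.49% and 2.79% before thinning.

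Id2 also varied more between cells than counting alone gives, and the intervals of its levels do not include this spread. At 2000 UMIs per cell the median number of Id2 UMIs was 4 (highest 17) in intestinal and 0 (highest 16) in splenic cells. In splenic Ccl5-high cells the median was 2, with 24.1% of cells at 0, 24.1% at 3 to 5 and 12.7% at 6 to 10 UMIs. In splenic Ccl5-low cells 67.0% were at 0, but 5.55% had 3 to 5 and 1.22% had 6 to 10 Id2 UMIs. The variance of Id2 UMIs over their mean, which counting alone puts at 1, was 2.17 for intestinal and 3.23 for splenic cells, and still 2.96 within splenic Ccl5-high and 2.40 within splenic Ccl5-low cells. The same quantity was 1.03 and 0.94 for Tcf3 and 1.03 and 1.03 for Tcf12, with the small intestine first, and 1.12 and 0.989 for Id3. Their means were at most 0.139 UMIs per cell, where this quantity lies near 1 for most spreads, so whether these 3 genes vary beyond counting could not be read from it.

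**Figure D2:**
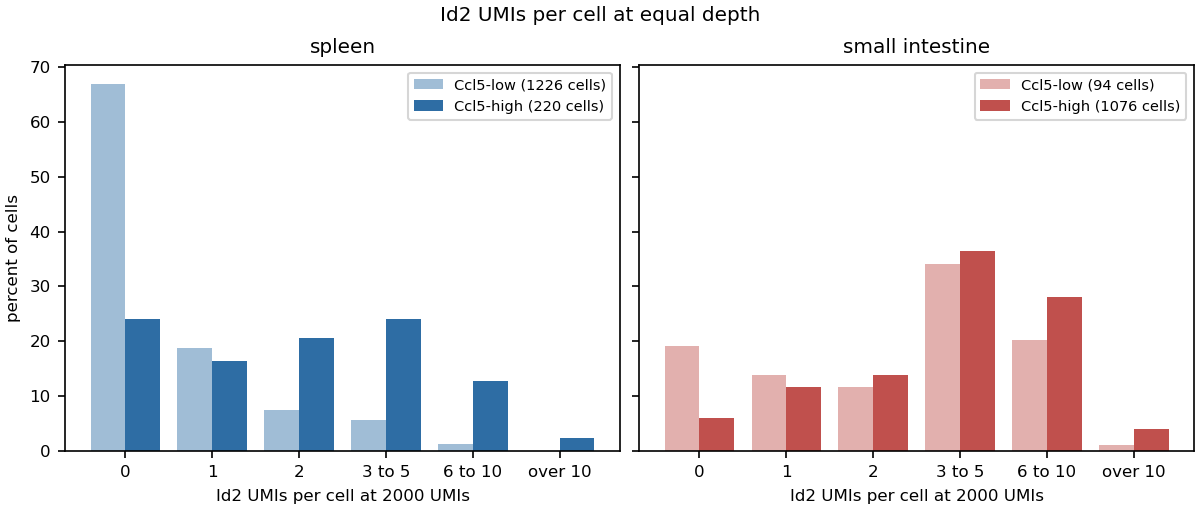
Percent of cells (vertical axis) by number of Id2 UMIs per cell after thinning to 2000 UMIs (horizontal axis), in spleen and small intestine, with Ccl5-low cells in the pale and Ccl5-high cells in the dark colour. In the spleen 67.0% of Ccl5-low but 24.1% of Ccl5-high cells are at 0, and in the small intestine both states have most cells between 1 and 10 UMIs.

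Graph clusters, made with the 4 genes, Ccl5 and Foxp3 left out, gave 6 groups of intestinal and 7 of splenic cells, which are called by number and their leading genes. They were made from other genes of the same cells, so the levels in them are a description. In the spleen Id2 had the order cluster 7 (led by Ccl5, Ccl4 and Nkg7, 83.8% Ccl5-high), 1 (S100a6, Nkg7, AW112010), 3 (Tnfrsf9, Tnfrsf4, Ctla4), 5 (Hmgb2, Stmn1, H2afz), 4 (Klf2, Pdcd4, Malat1), 2 (Tnfsf8, Malat1, Tcf7) and 6 (Ncl, Eif5a, Mif). The levels were 1427, 677.9, 429.8, 393.4, 204.3, 191.6 and 107.4 CPM, a 13.29-fold range. Neighbours in this order overlapped in their intervals for clusters 3 and 5 and for clusters 4 and 2, and the others did not overlap. These intervals leave out the spread of Id2 between cells. Clusters 3 and 5, where 55.9% and 42.1% of cells had a Foxp3 UMI, sat in the middle. Intestinal Id2 ranged 1.68-fold, from 2671 CPM in cluster 1 (Gzma, Plac8, Ccl5) to 1594 CPM in cluster 4 (Capg, Emb, Tmsb10), where 47.3% of cells were Ccl5-high. The lowest intestinal cluster (1504 to 1688) was above the highest splenic cluster (1339 to 1520), with intervals that overlap slightly. With 20 neighbours in the graph the splenic range was 6.84-fold.

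Id3 was highest where splenic Id2 was lowest. It stood at 21.68 CPM in splenic cluster 6 (21 UMIs), 13.18 in cluster 4 (12 UMIs) and 5.881 in cluster 2 (7 UMIs), and at 0.6107 to 2.396 CPM in the other 4, with 1 to 5 UMIs each. Of the 41 splenic cells with an Id3 UMI, 16 were in cluster 6 (11.8% of its cells), 11 in cluster 4 (5.26%) and 7 in cluster 2 (2.53%). Id3 made up 16.8% (10.7 to 24.5) of the Id2 and Id3 UMIs in splenic cluster 6, 6.06% (3.17 to 10.3) in cluster 4 and 0.103% (0.0026 to 0.571) in cluster 7. Intestinal cluster 4 held 13 of the 22 Id3 UMIs (17.85 CPM) and clusters 2 and 6 held none. Of these 13 UMIs, 4 were in 1 cell that had UMIs of Cd8a and Cd8b1. Cluster 4 also held 15 of the 22 UMIs of the NK cell and ILC markers and 20 of the 28 UMIs of the B and plasma cell markers in the library. Moreover, 10 of the 26 UMIs of the B cell gene Cd79a were in 2 of the 19 intestinal cells with an Id3 UMI, and the part of such cells in the intestinal Id3 level was not tested. In the spleen no Cd79a UMI was in a cell with an Id3 UMI, but 13 of the 65 UMIs of the myeloid gene Lyz2 were in 2 such cells (42.4 CPM in cells with an Id3 UMI, 7.09 CPM over all splenic cells). Of the other listed myeloid genes, Cst3 went the other way (88.1 against 156 CPM), and Itgax and Csf1r had 0 UMIs in cells with an Id3 UMI. Of the NK cell and ILC genes, splenic cells with an Id3 UMI held 2 UMIs of Tyrobp and 3 of Fcer1g, and 0 of Klrb1c, Kit and Ncr1. The part of myeloid, NK or ILC cells in the splenic Id3 level was not tested either.

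**Figure D3:**
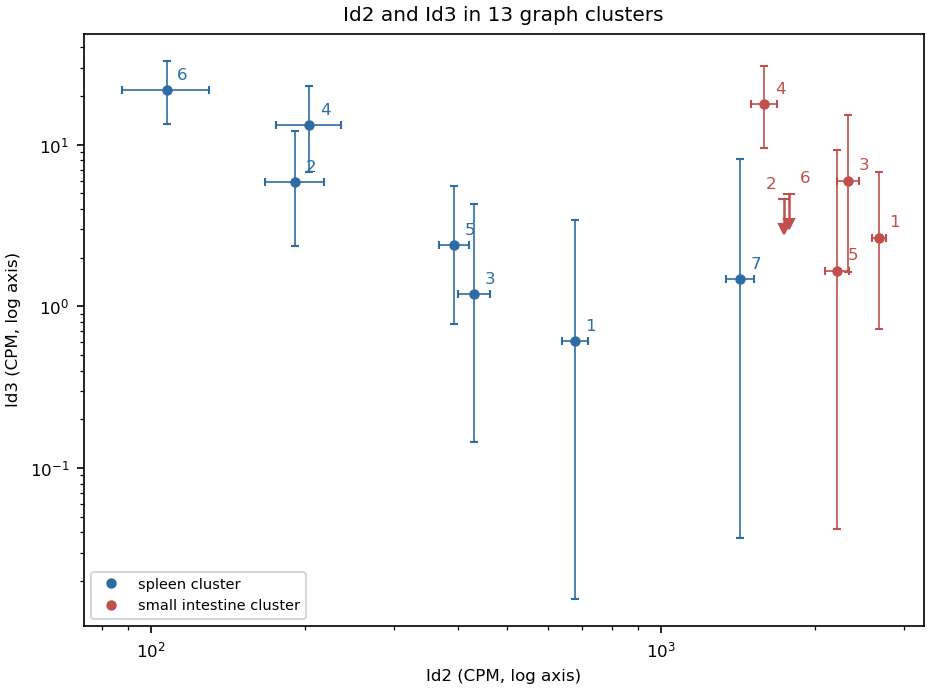
Id2 (horizontal) and Id3 (vertical) in CPM, both on log axes, in the 13 graph clusters, with spleen in blue and small intestine in red. Bars are exact Poisson 95% intervals and arrows mark clusters with 0 Id3 UMIs at the upper bound. Splenic clusters 6, 4 and 2 have the lowest Id2 and the highest splenic Id3, and intestinal cluster 4 has 17.85 CPM of Id3 beside 1594 CPM of Id2.

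Whether Id2 and Id3 exclude each other within cells could be described for few cells, because Id3 was seldom captured. In the spleen as deposited, 10 cells had both, 838 Id2 only, 31 Id3 only and 590 neither. The product of the single shares over all cells is 23.7 cells with both, and 10 (4.80 to 18.4) were found, a ratio of 0.423. An Id3 UMI was in 1.18% (0.567 to 2.16) of cells with and 4.99% (3.42 to 7.01) of cells without an Id2 UMI, and these intervals did not overlap. Among Ccl5-low cells, which held all of Id3, 10 cells had both where the product gave 21.4 (ratio 0.467), so the ratio was close to that over all cells. With the product taken within each graph cluster it was 18.6 (ratio 0.539), which the interval of the 10 cells just misses. Cells with an Id3 UMI were deeper than the others, with a median of 6507 against 5380.5 UMIs.

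In a random draw of 2000 UMIs per cell the splenic pattern was not detectable beyond counting error. Of the 17 cells in which an Id3 UMI was left, 5 had Id2, where the product over all cells gave 6.72 (ratio 0.744) and the product within graph clusters 3.68 (ratio 1.36). An Id3 UMI was in 0.874% (0.284 to 2.03) of cells with and 1.37% (0.711 to 2.39) of cells without Id2. This is 1 draw, and over all draws the expected ratio was 0.32. The ratio was 0.50 (0.06 to 1.82) at 1500 UMIs, 0.46 (0.15 to 1.08) at 3000 UMIs and 0.37 (0.08 to 1.09) over all deposited barcodes, so it was under 1 in these 3 settings too, with intervals that reach 1. By the number of Id2 UMIs left in the draw, Id3 was found in 12 of 874 splenic cells with 0, 5 of 266 with 1, and none of 137 with 2, 121 with 3 to 5 and 48 with over 5. The ranges that 0 allows are wide, with upper bounds of 2.66%, 3.0% and 7.4%.

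Nearly all intestinal cells with Id3 also had Id2. As deposited, 17 of the 19 cells with an Id3 UMI had Id2, where the product gave 18.1 (ratio 0.938). At 2000 UMIs per cell 10 of 14 did, where the product gave 13 (ratio 0.769), and an Id3 UMI was in 0.92% (0.442 to 1.69) of cells with and 4.82% (1.33 to 11.9) of cells without Id2, with overlapping intervals. With Id2 in 92.9% of intestinal cells at that depth the ratio cannot go much above 1, so it says little on whether the genes exclude each other, and 4 of the 14 cells with Id3 had no Id2 UMI. Of the 22 Id3 UMIs, 4 were in 1 cell that had UMIs of Cd8a and Cd8b1.

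**Figure D4:**
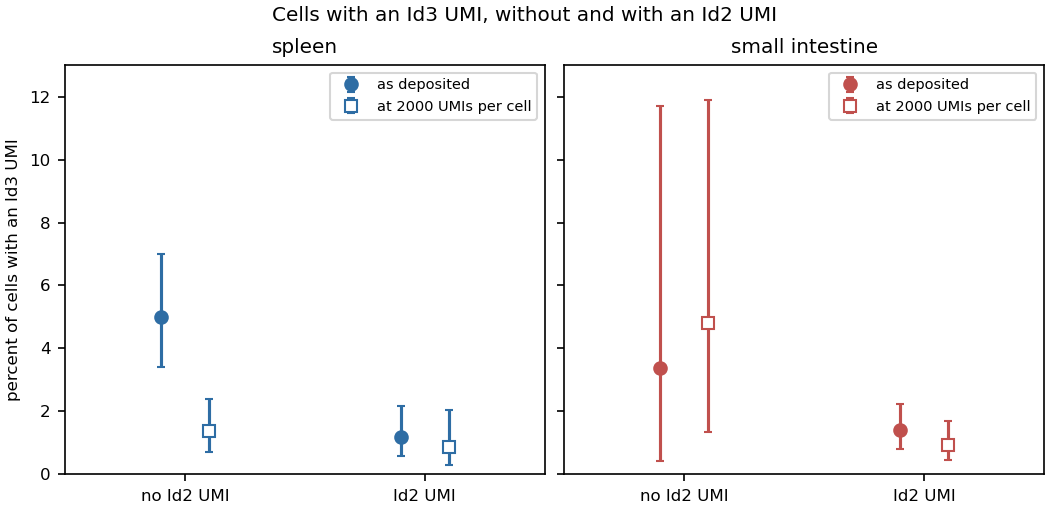
Percent of cells with an Id3 UMI (vertical axis) among cells without and with an Id2 UMI, in spleen and small intestine, as deposited (filled) and after thinning to 2000 UMIs per cell (open). Bars are exact binomial 95% intervals, which do not overlap in the spleen as deposited and overlap in the other 3 pairs.

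Splenic cells with an Id3 UMI had lower Id2, Gzmb and Il10 and higher Tcf7 and Lef1 than the others. All 41 were Ccl5-low, while the others included the 225 Ccl5-high cells. Ccl5 thus stood at 55.48 CPM in the cells with an Id3 UMI and at 2918 CPM in the others. The part of this in the differences was not tested. Id2 stood at 173.0 CPM in the cells with an Id3 UMI against 462.3 CPM in the other cells (log2 −1.42, −1.84 to −1.03), where 12.5% of genes were at least 2-fold lower and 2.78% at least 2-fold higher. Over all splenic Ccl5-low cells Id2 stood at 322.5 CPM. Among 11 measured memory, follicular helper and naive genes linked to Id3, Tcf7 and Lef1, which encode TCF-1 and LEF-1, were at least 2-fold higher (log2 1.25, 0.93 to 1.56, and 1.21, 0.77 to 1.62) and the IL-7 receptor gene Il7r was lower (−2.39, −3.60 to −1.40). Among 12 effector genes linked to Id2, none was at least 2-fold higher and 7 were lower, among them Gzmb, the gene of the cytotoxic protease granzyme B, at 55.48 against 1075 CPM and Prdm1, which encodes Blimp-1, at 13.05 against 73.51 CPM. Il10 itself stood at 159.9 CPM in these cells and at 487.3 CPM in the others (log2 −1.61, −2.04 to −1.20). They had 16 Tcf3 UMIs (log2 0.25, −0.57 to 0.97) and 7 Tcf12 UMIs (−0.53, −1.86 to 0.53), with no difference beyond counting error. The 19 intestinal cells with an Id3 UMI differed less in Id2, at 1789 against 2144 CPM (log2 −0.26, −0.50 to −0.03), where 9.32% of genes were at least 2-fold higher and 17.9% at least 2-fold lower. Whether the tissues differ in this was not tested. Of the measured genes in these cells, 4 of 11 effector genes were at least 2-fold lower (Zeb2, Gzmb, Ifng and Havcr2) and 3 of 6 memory genes higher (Lef1, Ccr7 and Klf2). These memory genes rest on few UMIs in the 19 cells, with 5 of Lef1 in 3 cells, 2 of Ccr7 and 15 of Klf2 in 4 cells. With a pseudocount of 10 CPM in place of 1, Zeb2 and Ccr7 were no longer past 2-fold there.

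The listed genes of other Id and E proteins were sparse. Of 10 listed Id, E protein and related genes, Id4 had 0 UMIs in both tissues and Id1 had 6 intestinal and 3 splenic UMIs. Tcf4, another E protein gene, had 41 intestinal UMIs (8.145 CPM) and 18 splenic UMIs (1.965 CPM), with a log2 difference of 2.05 (1.22 to 2.94). All of the 3 that reached 50 UMIs were at least 2-fold higher in the small intestine, as were 9.33% of all genes, the other 2 being Bhlhe40 (243.2 against 68.22 CPM), a repressor known from cytokine-producing T cells, and Mxi1 (101.9 against 14.52 CPM), which antagonises Myc.

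Tcf12 made up 65.1% (60.7 to 69.2) of the Tcf3 and Tcf12 UMIs in intestinal and 42.5% (38.8 to 46.2) in splenic cells. In the spleen the share was 41.0% (30.3 to 52.3) in Ccl5-high and 42.7% (38.7 to 46.7) in Ccl5-low cells, and 41.6% (34.2 to 49.3) in cells with a Foxp3 UMI. In the small intestine it was 66.2% (61.6 to 70.5) in Ccl5-high and 52.5% (36.1 to 68.5) in Ccl5-low cells. Intestinal cells with a Foxp3 UMI had 33.3% (7.49 to 70.1), from 6 Tcf3 and 3 Tcf12 UMIs. The intervals of the intestinal Ccl5-low and Foxp3 groups overlap with that of all splenic cells. Every intestinal cluster had a higher share than every splenic cluster, from 55.8% (44.1 to 67.2) in intestinal cluster 4 upward and up to 54.1% (43.7 to 64.2) in splenic cluster 2, but these 2 overlap in their intervals. Tcf3 ranged from 36.8 to 55.1 CPM over the splenic clusters (1.5-fold, 1.09 to 2.08). Over the intestinal ones it ranged from 26.0 to 46.7 CPM (1.80-fold, 1.10 to 2.92). Tcf12 ranged 1.69-fold (0.97 to 3.06) over the splenic and 1.47-fold (0.96 to 2.25) over the intestinal clusters. The highest and lowest clusters were picked from these same counts, so these intervals cannot show whether clusters differ beyond counting error. In the 61 intestinal G2/M cells left out elsewhere Tcf3 stood at 63.06 CPM (40.8 to 93.1) against 34.57 CPM in the cells kept. In the 179 splenic ones it stood at 47.08 CPM (37.2 to 58.8) against 44.20 CPM, which is within counting error. The kept splenic cells still included cluster 5. Its level of the cycling genes Mki67, Top2a, Stmn1 and Hmgb2 was 4898 CPM, against 1655 CPM over all kept splenic cells. Its Tcf3 level was the highest of the splenic clusters, at 55.11 CPM (45.5 to 66.2). The part of such kept cells in this comparison was not tested.

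**Figure D5:**
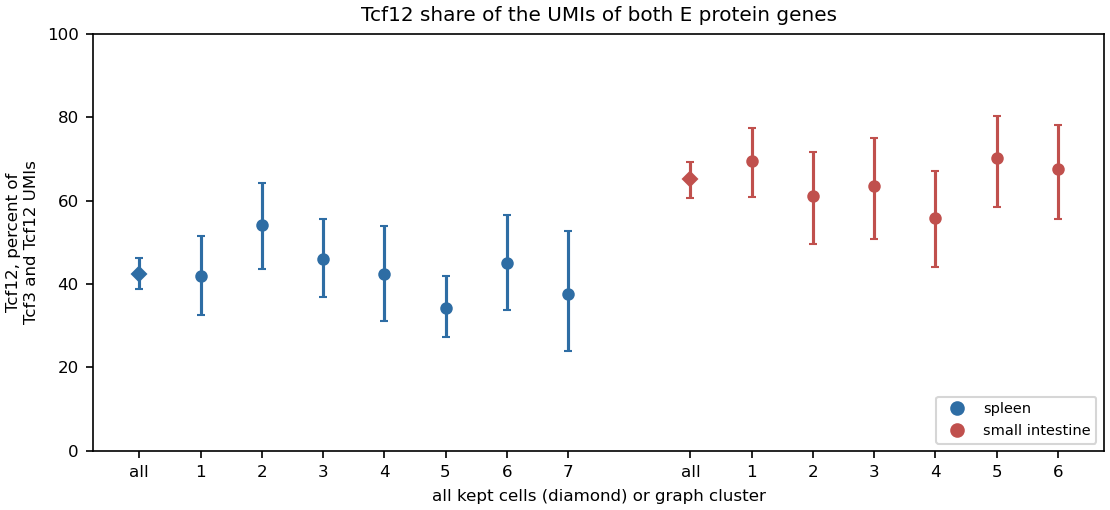
Tcf12 UMIs as a percent of the Tcf3 and Tcf12 UMIs (vertical axis) in all kept cells (diamonds) and in each graph cluster (circles), with spleen in blue, small intestine in red and exact binomial 95% intervals. The spleen stands at 42.5% and the small intestine at 65.1%, and the highest splenic cluster, at 54.1%, lies just under the lowest intestinal one, at 55.8%.

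Effector genes linked to Id2 were mostly higher, and memory genes linked to Id3 mostly lower, in intestinal and in Ccl5-high cells, but within the Ccl5-high state the effector genes did not differ this way between tissues. The lists were chosen with earlier results of these data known, so they are no independent evidence. Between tissues, 7 of the 12 effector genes were at least 2-fold higher in the small intestine and 1 lower (median log2 1.61, against −0.02 for all genes, of which 9.33% were higher and 12.3% lower), led by Gzmb (12558 against 1041 CPM) and Ifng, the interferon-γ gene (354.0 against 60.14 CPM). Klrg1, a marker of terminal effector cells, was the lower gene. Of the 12 memory genes, 10 were lower (median −2.48), among them Tcf7 (9.337 against 131.6 CPM), and 2 were higher, Bcl6 and Foxo1. Between Ccl5 states of the spleen, 7 of 12 effector genes were at least 2-fold higher (median 1.78) and 6 of 11 memory genes lower (median −1.06), against 2.04% and 2.87% of all genes. Among intestinal cells 6 of 11 effector genes were at least 2-fold higher in the Ccl5-high state (median 1.17) and 5 of 6 memory genes lower (median −1.39), against 5.40% and 5.91% of all genes. Between tissues within a state, in cells without a Foxp3 UMI, 6 of 11 effector genes were at least 2-fold higher and 1 lower among Ccl5-low cells (median 1.19, background 10.1% each way). Among Ccl5-high cells only 1 of 11 was higher and 1 lower (median −0.05, background 8.38% and 7.07%). Id2 was higher there by log2 0.70, which is not past 2-fold either. Of the memory genes 8 of 11 were lower among Ccl5-low cells (median −1.57), and 4 of 7 lower and 1 higher among Ccl5-high cells (median −1.03).

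Known E protein targets were mostly within 2-fold. Of 8 with enough UMIs, 1 was at least 2-fold higher in the small intestine, Foxo1, and 2 were lower, Cxcr5 and Il7r, with a median log2 of 0.19, which is near the 9.33% and 12.3% over all genes and no result about this list. In splenic Ccl5-high cells only Cxcr5, the follicular homing receptor gene, was past 2-fold and lower among the 8 (median −0.23), where 2.87% of all genes were. Of 9 genes listed as T cell receptor and TGF-β signals upstream of Id genes, 5 were at least 2-fold higher in the small intestine, against 9.33% of all genes. Among these were the immediate early genes Egr1 (log2 1.15) and Nr4a1 (1.33) and the TGF-β receptor gene Tgfbr2 (1.34). The others were Smad7 (2.74) and Skil (2.29), which TGF-β induces as its own inhibitors. Egr2 and Smad3 were lower, and in splenic Ccl5-high cells Smad7 alone was past 2-fold (1.08), where 2.04% of all genes were higher. Of the 6 IL-10 genes none was at least 2-fold higher in either comparison, and Batf and Irf4 were lower in the small intestine, where 12.3% of all genes were. With a pseudocount of 10 CPM in place of 1, Foxo1, Bcl6, Klrg1, Egr2, Smad3, Il7r, Bach2, Batf and Tcf4 between tissues and Cxcr5, Bach2, Smad7, Bhlhe40 and Mxi1 between splenic Ccl5 states were no longer past 2-fold.

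Some splenic Ccl5-low cells had Id2 without the Ccl5-high state. At equal depth, those with 2 or more Id2 UMIs were compared with those with none, where 1.87% of 4381 genes were at least 2-fold higher and 1.67% lower. Of 9 effector genes with enough UMIs, Gzmb, the chemokine receptor gene Cxcr6 and Nkg7 were higher and none lower (median 0.73), and of 11 memory genes 3 were lower, among them Tcf7 and Ccr7 (median −0.71). Their Ccl5 level was 105.7 against 81.00 CPM (log2 0.38, −0.18 to 0.92) and their Tcf3 level 57.14 against 38.98 CPM (0.55, −0.25 to 1.30). By the number of Id2 UMIs over all splenic cells, Gzmb went from 380 CPM (352 to 410) at 0 to 4104 CPM (3709 to 4530) at over 5, and Tcf7 from 211 CPM (190 to 233) to 10.4 CPM (0.264 to 58.0). These cells include the Ccl5-high ones, and Ccl5 went from 1075 CPM (1027 to 1125) to 24427 CPM (23448 to 25436). The part of the Ccl5-high state in the Gzmb and Tcf7 levels was not tested. Splenic Il10 had overlapping intervals at the ends, with 446 CPM (415 to 479) at 0 and 354 CPM (245 to 495) at over 5 Id2 UMIs. Intestinal Il10 was higher with more Id2, at 410 CPM (318 to 519) with 0 and 717 CPM (657 to 781) with over 5 Id2 UMIs. These 2 intestinal groups also differed in Ccl5 (33831 and 50328 CPM), Gzmb (7657 and 13949 CPM) and Tcf7 (78.3 and 1.37 CPM). The part of this in the Il10 level was not tested.

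Over the 13 graph clusters, with the mean of each tissue taken off, the genes with a pattern most like Id2 among 5975 genes were Entpd1, which encodes the ectonucleotidase CD39 (Pearson r of log2 levels 0.98), Lilr4b (0.97), Lilrb4a (0.95), Cd48 (0.95) and Metrnl (0.95). The most opposite were Rps27a (−0.93), Rps25 (−0.93), Rpl5 (−0.92), Kcnn4 (−0.92) and Wdr89 (−0.91), the first 3 of which encode ribosomal proteins. Over the splenic clusters alone r was 0.96 to 0.99 for the 5 most like and −0.94 to −0.98 for the 5 most opposite. Over the intestinal ones it was 0.91, 0.91, 0.89, 0.55 and 0.57 for the 5 most like, in the order given. For the 5 most opposite it was −0.87, −0.67, −0.79, −0.87 and −0.69 there. For Id3, which rests on 0 to 21 UMIs per cluster, the most like were Pptc7 (0.93), Eef1g (0.92), Skp1a (0.91), Rpl15 (0.88) and Rpl14 (0.87), and the most opposite Gpr55 (−0.93), Zbp1 (−0.89), Mrpl39 (−0.88), Runx2 (−0.88) and Ms4a6d (−0.88). Id2 and Id3 had r of −0.66 over the 13 clusters, −0.84 over the 7 splenic and −0.25 over the 6 intestinal ones. Id2 and Tcf12 had r of −0.61, with −0.83 over the splenic and 0.17 over the intestinal clusters, and Id2 and Tcf3 had −0.20, with −0.12 over the splenic and −0.73 over the intestinal clusters. Clusters of a tissue share a library, a cluster rule and part of their depth, so these values describe the clusters and have no test.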

How the data were processed

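The deposited UMI counts per gene and cell barcode, 1 10x library for each tissue, were made by the authors by trimming reads with Trimmomatic, aligning them to Mm10 and counting UMIs with Cell Ranger, and they are not normalized. The submitters' processing notes also list mm8, and versions are not given in the sources used here. 3′ UMI counts cannot tell E12 from E47. Other data of the study and the proteins of the 4 genes were not analysed here. The 4 genes and the gene lists were chosen with earlier results of these data known.

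Following the study's methods, cells over 3 median absolute deviations below the median in log UMIs or log genes, or above it in mitochondrial share, were removed (135 intestinal and 90 splenic cells), then cells that cyclone (scran 1.30.0) placed in G2/M (61 and 179). Clusters were found by the Louvain method on a graph of 10 neighbours per cell (bluster 1.12.0) in 20 principal components of log2 values normalized with pooled size factors, over 119 splenic and 62 intestinal variable genes without Id2 and Ccl5. Scrublet (scanpy 1.11.5) called 12 intestinal and 3 splenic doublets, which were left out only as an alternative. Cells were thinned with numpy 2.4.6 and random seed 1, and intervals came from scipy 1.17.1. Genes with at least 50 UMIs in a comparison were counted as past 2-fold with a pseudocount of 1 CPM, and named genes were the 4 genes, Ccl5, Foxp3, the listed genes, the 3 leading genes of each cluster and the 5 most and 5 least alike in likeness to Id2 and Id3. Scripts were tested on simulated data, which had more Id3 than these libraries and no spread in Id2 levels like theirs. Gene positions are from GENCODE and the promoter from RefSeq. The values of 1 listed gene are not reported here.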

Additional observations from a re-analysis of the deposited data

How the results depend on the processing

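No paired analysis was possible because each tissue has 1 library, and for the same reason no replicate could be left out. Under other settings, 253 values moved by less than their counting error or, for counts of genes, less than 1.5-fold, 36 moved more and none reversed beyond counting error. The log2 differences that moved follow, and the cause was not tested unless the setting itself gives it. Id2 between intestinal Ccl5 states was 0.27 over all barcodes, 0.52 with a total without abundant genes, 0.61 with pooled size factors and 0.00 with the cut at 0.5 per 1000, where Tcf12 was −0.58. Splenic Id2 between Ccl5 states was 2.08 with pooled size factors, and Id2 between tissues 2.30 without abundant genes in the total. With at least 2 Foxp3 UMIs, the splenic differences were −0.81 for Id2, −1.43 as a bound for Id3 and −0.62 for Tcf12, and the intestinal one for Id2 −1.44. Without Ccl5-high cells splenic Id2 was −0.07 and intestinal Id2 −0.17, and at 2000 UMIs per cell intestinal Id2 was −0.13 and splenic Tcf3 and Tcf12 were 0.38 and −0.97. Between tissues, in Ccl5-low cells without a Foxp3 UMI, Id2 was 2.38, Id3 0.93 and Tcf12 0.70, and in such Ccl5-high cells Id2 was 0.70 and Tcf12 1.30. Both of these and the product within clusters were chosen after seeing the data. The log2 ratio of shares with Id2 was 1.43 at 1500, 1.04 at 3000 and 0.72 without thinning, and without it −0.92 for Tcf3 and 0.25 for Tcf12. With 20 neighbours the splenic range of Id2 over clusters was 6.84-fold. With a pseudocount of 10 CPM, 4 list counts at 1 or 2 between tissues fell to 0 (E protein targets higher, effector genes lower, memory genes higher, upstream signals lower) and 2 fell to 1 (E protein targets and IL-10 genes lower), and between splenic Ccl5 states 3 fell to 0 (other family genes higher, E protein targets lower, upstream signals higher). Where a group held 0 UMIs and the other was at or under the floor of 3 UMIs, no value was given. Pooled size factors were not used between tissues, since they were scaled within each tissue. Depth limits Id3 most, as its 71 UMIs leave joint detection with Id2 to a few cells.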
